A study of Sus scrofa with 6 samples.

Results

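The genes described here encode subunits of the Polycomb repressive complexes. They are EZH2, EZH1, EED, SUZ12 and JARID2 of Polycomb repressive complex 2 (PRC2), and RNF2, BMI1, PHC1, CBX2 and CBX7 of Polycomb repressive complex 1 (PRC1). They were chosen by name, and all 10 were found among the 18007 porcine genes of the expression table. Of these rows, 9 carry the symbol, while BMI1 is listed by its Ensembl identifier alone. The first group held 3 lines of porcine embryonic fibroblasts (PEF5, PEF7 and PEF8), grown from the ear tips of embryos at day 90. The embryos came from a cross between a Longwhite boar, named Large White in the study, and a Meishan sow. The second group held piPSC5, piPSC7 and piPSC8, the induced pluripotent stem cell lines made from the fibroblast lines of the same number. They arose after lentiviral delivery of Oct4, Sox2, Klf4 and c-Myc under a doxycycline-inducible promoter, with the transactivator M2rtTA, and the colonies were grown on mouse feeder cells. Both groups therefore share their parents and their line of origin, and each line was sequenced once as a poly-A library read over 150 bp from both ends. The p-values measure the spread between lines.

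PRC2 places methyl groups on a lysine of histone H3, with EZH2 or EZH1 as the catalytic subunit and EED and SUZ12 as core partners that the enzyme needs. JARID2 is an accessory subunit that helps to bring PRC2 to its sites. PRC1 attaches ubiquitin to histone H2A through RNF2 or RING1. In its canonical form it also holds a PCGF protein such as BMI1, a polyhomeotic protein such as PHC1 and a CBX protein, whose chromodomain reads the mark of PRC2. Both complexes are known for keeping developmental regulators silent in pluripotent cells and in differentiated cells, with partly different subunits.

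The level of a gene is given as FPKM, the fragments of a gene scaled to its length and to the total of the library, so that levels of genes of different length can be set side by side. Libraries held between 11010629 and 17836510 fragments, and the fragments behind each FPKM value could be recovered. Of 10 fibroblast markers, 10 were lower in piPSCs (limma, adjusted p under 0.05), with a summed level between 131 and 223 FPKM against 4492 to 6456 FPKM in PEFs. NANOG, SALL4, ESRRB, EPCAM and CDH1 stayed at or below 0.117 FPKM in all 6 libraries. These genes of the pluripotency list were thus absent or nearly so from the piPSCs. POU5F1, LIN28A, TDGF1 and DPPA4 were not found among the genes listed, so the pluripotency list could be read only in part. SOX2 was read at 3.01, 2.49 and 0.129 FPKM in piPSC5, piPSC7 and piPSC8, and LIN28B at 2.51, 0.281 and 8.90 FPKM. Both lay above every PEF library, but neither was called (limma adjusted p = 0.0626 and 0.0667). The 6 cartilage markers summed to at most 0.307 FPKM in any library. The 4 keratinocyte markers listed summed to between 3.04 and 3.35 FPKM in PEFs and between 4.74 and 9.09 FPKM in piPSCs. KRT10 was called higher (limma adjusted p = 0.0291, but 0.0633 with the line as a replicate block), and TP63 was at 0 in 5 of 6 libraries. In piPSC7, KRT14 was read at 3.04 FPKM and KRT5 at 0.806 FPKM. They were at or below 0.483 and 0.0313 FPKM in PEFs and 0.225 and 0.0252 FPKM in piPSC5 and piPSC8. The 4 endothelial and blood cell markers listed summed to between 1.02 and 4.85 FPKM over the 6 libraries. PECAM1 was lower in piPSCs without overlap but was not called (limma adjusted p = 0.102). CD68 went the other way, from a mean of 1.39 FPKM in PEFs to 1.83 FPKM in piPSCs, with overlap and not called (limma adjusted p = 0.62). The part of these cell types in the results was not tested. Of 15 proliferation genes, 13 were higher in piPSCs, with sums of 271 FPKM (PEF5), 54.8 (PEF7) and 86.9 (PEF8), against 558 to 613 FPKM in piPSCs. The study describes the lines as male, yet 4 Y-linked genes summed to 0 FPKM in PEF5, PEF7 and piPSC7, to 0.014 FPKM in piPSC5, and to 39.9 and 60.8 FPKM in PEF8 and piPSC8.

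Within the Polycomb genes, a catalytic subunit and a core partner of PRC2 and 3 subunits of PRC1 were higher in piPSCs, and a reader subunit of PRC1 was lower. EZH2, SUZ12, RNF2, PHC1 and CBX2 rose and CBX7 fell at an adjusted p under 0.05 (limma on log2(FPKM + 1), Benjamini-Hochberg over 12428 genes). EZH1, EED, JARID2 and BMI1 did not pass the test. Thus 5 of 10 genes (50%) were higher, where 30.3% of all genes tested were higher. In the other direction 1 gene (10%) was lower, where 21.5% of all genes were. The groups did not overlap for the same 5 higher genes and for CBX7, beside 37.3% and 26.8% of all genes tested. The median log2 fold change of the 10 genes was 0.61 and that of all genes tested was 0.20. Line 8 was the only line with more than 1 fragment of the Y-linked genes in any library. Without both its libraries the counts were again 5 and 1, and they were 4 and 1 without line 5 or without line 7. Over all genes tested they were 3047 and 2223 of 12258 without line 8, 1805 and 1334 of 12451 without line 5, and 2615 and 1987 of 12379 without line 7. In bulk RNA, fewer cells that express a gene and less of its RNA per cell cannot be told apart.

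**Figure D1:**
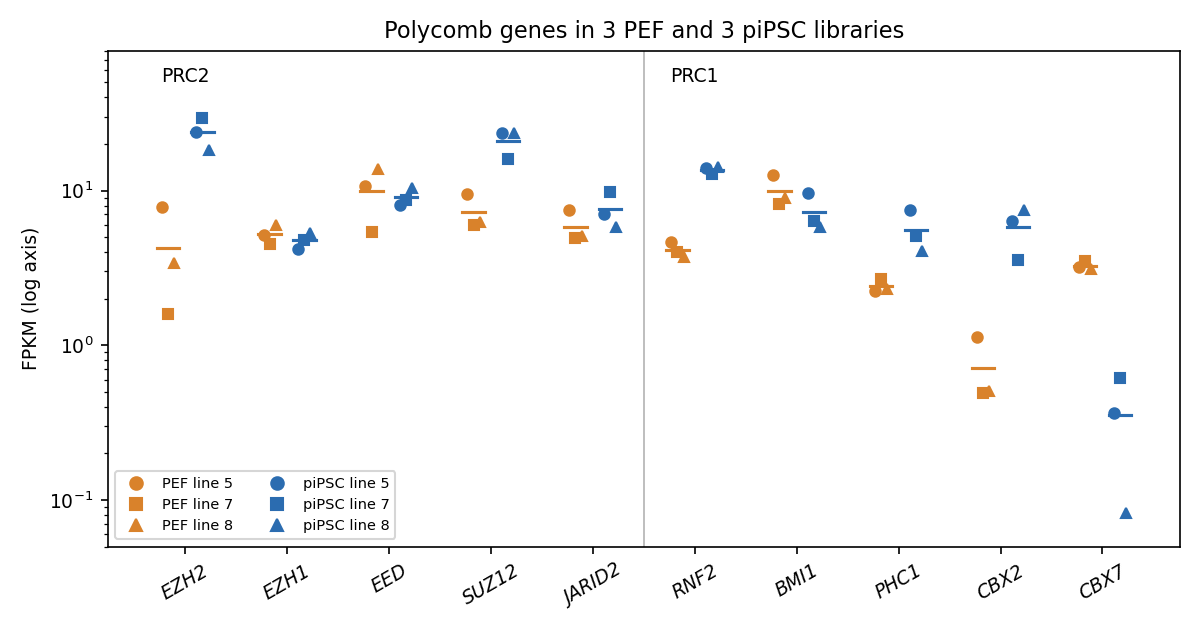
FPKM (log axis) of the 10 Polycomb genes in 3 PEF lines (orange) and 3 piPSC lines (blue), with 1 point per library, a symbol per line and a bar at the group mean. EZH2, SUZ12, RNF2, PHC1 and CBX2 lie higher in every piPSC library than in every PEF library, CBX7 lies lower, and the groups overlap for EZH1, EED, JARID2 and BMI1.

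The order of the genes by level changed between the groups. In PEFs, EED and BMI1 had the highest means, both at 9.90 FPKM, and CBX2 the lowest, at 0.709 FPKM. In piPSCs, EZH2 came first at 23.8 FPKM, followed by SUZ12 at 21.0 FPKM, and CBX7 came last at 0.353 FPKM. EZH2 and SUZ12 overlapped in range in piPSCs, as did EED and BMI1 in PEFs, so these neighbours could not be ordered beyond the spread between lines. Summed over the 10 genes, the level was 64.3, 41.3 and 52.9 FPKM in the PEF lines 5, 7 and 8 and 105, 97.0 and 94.9 FPKM in their piPSC counterparts.

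The catalytic subunit EZH2 (ENSSSCG00000028840, chromosome 9 of Sscrofa11.1 from 109385019 to 109451018, plus strand) was read at 7.82 FPKM in PEF5, at 1.60 in PEF7 and at 3.38 in PEF8, whereas piPSC5 had 23.9, piPSC7 29.4 and piPSC8 18.3 FPKM. The groups did not overlap, and PEF5 was well above the other PEF lines. The mean rose from 4.27 ± 3.21 to 23.8 ± 5.56 FPKM (SD, n = 3), a ratio of 5.59. Its log2 fold change of 2.39 (SE 0.45, 95% interval 1.32 to 3.46, limma adjusted p = 0.00537) was exceeded by 2.75% of all genes tested. It was larger than that of CBX2 here, but smaller with a pseudocount of 0.1 (2.71 against 2.89), with voom on the recovered fragments and without both libraries of line 7. Within lines the log2 ratio was 1.50 for line 5, 3.55 for line 7 and 2.14 for line 8. The PEF lines had the same order for the sum of the proliferation genes as for EZH2, with MCM2, a replication licensing factor, at 18.4, 1.51 and 4.18 FPKM in lines 5, 7 and 8. Whether proliferation has a part in the EZH2 level was not tested.

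EZH1 (ENSSSCG00000017382, chromosome 12 from 20118356 to 20139419, plus strand), the other catalytic subunit, which is usually more prominent in cells that divide little, was read at 5.15, 4.51 and 5.95 FPKM in PEF5, PEF7 and PEF8, and at 4.22, 4.81 and 5.32 FPKM in piPSC5, piPSC7 and piPSC8. The groups overlapped. The log2 fold change was -0.10 (95% interval -0.55 to 0.35, limma adjusted p = 0.676), and this interval leaves room for a change in either direction. The pair changed its order between the groups. EZH2 was at 1.52, 0.354 and 0.568 times the EZH1 level in PEF5, PEF7 and PEF8, and at 5.66, 6.10 and 3.43 times that level in the piPSC lines. EZH2 was thus below EZH1 in PEF7 and PEF8 and above it in the remaining 4 libraries. The log2 ratio with a pseudocount of 1 was -0.41 ± 0.83 for PEFs and 2.08 ± 0.42 for piPSCs (SD, n = 3), a difference of 2.49. The exact two-sided permutation test gave p = 0.1, the smallest value that 3 libraries against 3 can give.

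SUZ12 (ENSSSCG00000017744, chromosome 12 from 42983388 to 43032751, minus strand), the core subunit that stabilises the enzyme, was read at 9.49, 5.95 and 6.22 FPKM in the PEF lines and at 23.5, 16.1 and 23.4 FPKM in the piPSC lines, in the order 5, 7 and 8. The lowest piPSC library lay above the highest PEF library. The mean rose from 7.22 ± 1.97 to 21.0 ± 4.24 FPKM (SD, n = 3), with a log2 fold change of 1.43 (SE 0.24, 95% interval 0.85 to 2.00, limma adjusted p = 0.00376). EED (ENSSSCG00000014915, chromosome 9 from 20123509 to 20158743, plus strand), the subunit that binds the finished mark, was read at 10.6, 5.40 and 13.7 FPKM in PEFs and at 8.11, 8.62 and 10.4 FPKM in piPSCs. The groups overlapped, and the PEF lines spanned the whole range of the piPSC lines. Its log2 fold change was -0.04 (95% interval -0.81 to 0.73, limma adjusted p = 0.922). JARID2 (ENSSSCG00000001061, chromosome 7 from 11303859 to 11602097, plus strand) was read at 7.47, 4.96 and 5.10 FPKM in PEFs and at 7.04, 9.79 and 5.79 FPKM in piPSCs. The groups overlapped here too, with a log2 fold change of 0.31 (95% interval -0.29 to 0.91, limma adjusted p = 0.325). Of the PRC2 genes, EZH2 and SUZ12 thus passed the test and the other 3 did not, and the difference in change between them was not tested.

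The promoters of the Polycomb genes, CBX7 left aside, were searched on both strands for TTTCCCGC and TTTGGCGC, forms of the site bound by the E2F factors of the cell cycle. The searched window ran from 250 bases before to 50 bases after each transcript start in the RefSeq annotation of Sscrofa11.1. One of the sites was found for 2 of the 9 genes, SUZ12 and EZH2, and for 2.36% of the 19556 promoters of all genes (1.70% with TTTCCCGC and 0.68% with TTTGGCGC). For EZH1, EED, JARID2, RNF2 and BMI1 the RefSeq start lay 432 to 54384 bases from the end given in the expression table, so the window may not be the start used in these cells. In SUZ12 the match began 205 bases before the start, and the 250 bases before the start (chr12:43032672-43032921, minus strand) are shown with the match in capitals.
SUZ12: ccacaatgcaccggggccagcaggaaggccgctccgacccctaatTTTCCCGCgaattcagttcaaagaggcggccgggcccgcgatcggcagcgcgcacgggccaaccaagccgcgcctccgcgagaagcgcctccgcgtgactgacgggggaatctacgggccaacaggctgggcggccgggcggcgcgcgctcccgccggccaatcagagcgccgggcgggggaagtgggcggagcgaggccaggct
In EZH2 the match began at base 40 of the transcript, within a stretch at chr9:109385005-109385025 on the plus strand.
EZH2: ggctgccgggTTTGGCGCttg
A match of letters is a description of the sequence, and binding was not measured.

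RNF2 (ENSSSCG00000015568, chromosome 9 from 126224251 to 126285201, plus strand), the ubiquitin ligase also called RING1B, was read at 4.68, 3.98 and 3.69 FPKM in PEF5, PEF7 and PEF8 and at 14.0, 12.8 and 14.3 FPKM in piPSC5, piPSC7 and piPSC8. The lines of each group lay close together and the groups were far apart. The mean rose from 4.12 ± 0.508 to 13.7 ± 0.797 FPKM (SD, n = 3), with a log2 fold change of 1.52 (SE 0.17, 95% interval 1.13 to 1.92, limma adjusted p = 0.000832). Its alternative, RING1, was read at 21.8, 25.8 and 24.4 FPKM in PEFs and at 22.6, 21.8 and 21.8 FPKM in piPSCs, with a log2 fold change of -0.11 (95% interval -0.44 to 0.22, limma adjusted p = 0.517), which became -0.43 (0.0464) when each library was rescaled to a sum of 1000000. RING1 remained the more abundant transcript of the pair in all 6 libraries. The share of RNF2 in their sum was 14.7 ± 2.55% in PEFs and 38.2 ± 1.33% in piPSCs (SD, n = 3).

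BMI1 (ENSSSCG00000011081, chromosome 10 from 52583492 to 52596824, minus strand), the PCGF subunit that stimulates the ligase and is known as a repressor of the CDKN2A locus, was read at 12.5, 8.20 and 8.97 FPKM in PEFs and at 9.59, 6.34 and 5.79 FPKM in piPSCs. The groups overlapped, although each piPSC line lay below its own PEF line. The log2 fold change was -0.41 (SE 0.25, 95% interval -1.01 to 0.19, limma adjusted p = 0.205). When each library was rescaled to the median ratio over genes, it became -0.65 with a limma adjusted p of 0.0489. PCGF2, the PCGF subunit that can take its place, was read at 7.43, 9.57 and 7.94 FPKM in PEFs and at 9.27, 9.15 and 9.42 FPKM in piPSCs, with a difference of 0.15 on the log2 scale (limma adjusted p = 0.47) that turned negative under both rescalings. The BMI1 level was 1.69, 0.857 and 1.13 times that of PCGF2 in the PEF lines and 1.03, 0.692 and 0.615 times that of PCGF2 in the piPSC lines. The difference of -0.56 between the groups in the log2 ratio had p = 0.2 in the exact two-sided permutation test.

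PHC1 (ENSSSCG00000000661, chromosome 5 from 62557774 to 62580657, minus strand), a polyhomeotic subunit through which PRC1 complexes can join into larger assemblies, was read at 2.23, 2.68 and 2.33 FPKM in PEFs and at 7.51, 5.07 and 4.06 FPKM in piPSCs. The groups did not overlap. The mean rose from 2.41 ± 0.236 to 5.54 ± 1.77 FPKM (SD, n = 3), with a log2 fold change of 0.91 (SE 0.24, 95% interval 0.32 to 1.49, limma adjusted p = 0.0205). This call was the least stable of the 6. The limma adjusted p was 0.0631 without PEF5, 0.0551 without PEF8, 0.062 without piPSC5, 0.159 without both libraries of line 5 and 0.0832 without both of line 7. The row of PHC1 overlaps that of M6PR on the opposite strand, from 62546201 to 62560672. The use of strand in counting is not given in the sources used here, so reads of the shared stretch cannot be assigned with certainty. M6PR averaged 32.1 FPKM in PEFs and 37.6 FPKM in piPSCs, a difference of 0.22 on the log2 scale (limma adjusted p = 0.252). PHC2 fell, from 57.5, 56.6 and 63.0 FPKM to 29.3, 34.5 and 17.9 FPKM, and PHC3 rose, from 1.62, 0.854 and 0.999 FPKM to 4.91, 3.45 and 2.43 FPKM. The call of PHC2 ended without both libraries of line 5 (limma adjusted p = 0.0737), and that of PHC3 without PEF7 (limma adjusted p = 0.0633), PEF8 (0.0532) or piPSC5 (0.0626).

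CBX2 and CBX7 are alternative chromodomain subunits of canonical PRC1, of which CBX7 is best known from self-renewing pluripotent cells and CBX2 from differentiating ones. CBX2 (ENSSSCG00000024261, chromosome 12 from 2569782 to 2580318, minus strand) was read at 1.13, 0.495 and 0.503 FPKM in PEFs and at 6.36, 3.54 and 7.49 FPKM in piPSCs. The lowest piPSC library was above every PEF library. The mean rose from 0.709 ± 0.364 to 5.80 ± 2.03 FPKM (SD, n = 3), a ratio of 8.17, with a log2 fold change of 1.96 (SE 0.31, 95% interval 1.23 to 2.70, limma adjusted p = 0.00286). CBX7 (ENSSSCG00000000090, chromosome 5 from 9070353 to 9087634, plus strand) went the other way, from 3.21, 3.48 and 3.12 FPKM in PEFs to 0.363, 0.612 and 0.0826 FPKM in piPSCs. The PEF lines were nearly alike and all piPSC lines lay far below them. The log2 fold change was -1.68 (SE 0.23, 95% interval -2.24 to -1.12, limma adjusted p = 0.00185), which understates the change because a pseudocount of 1 is large beside the level in piPSCs. In means, PEFs had 3.27 ± 0.188 FPKM and piPSCs 0.353 ± 0.265 FPKM (SD, n = 3), a ratio of 9.29.

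The low CBX7 values rest on few fragments, with 63, 64 and 52 in the PEF lines and 6, 8 and 1 in piPSC5, piPSC7 and piPSC8. Corrected for library size, the pooled PEF count was 9.11 times the pooled piPSC count, with an exact 95% interval of 5.38 to 16.6 that covers counting error only. For line 8 alone the ratio was 37.8, with an interval of 6.49 to 1521. This interval was computed after the values had been seen. CBX2 stood at 0.352, 0.142 and 0.161 times the CBX7 level in PEF5, PEF7 and PEF8, and at 17.5, 5.79 and 90.6 times that level in piPSC5, piPSC7 and piPSC8. CBX7 was the higher of the pair in every PEF library and CBX2 in every piPSC library. Of the other CBX genes examined, CBX6 lay above both in means, at 11.2 FPKM in PEFs and 28.8 FPKM in piPSCs. CBX8 averaged 2.39 FPKM in PEFs and 2.70 FPKM in piPSCs. The value of 90.6 rests on 1 CBX7 fragment, and its counting interval runs from 16.2 to 3584. In the log2 ratio with a pseudocount of 1, PEFs stood at -1.34 ± 0.32 and piPSCs at 2.30 ± 0.75 (SD, n = 3), a difference of 3.64 with p = 0.1 in the exact two-sided permutation test, again the smallest possible.

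**Figure D2:**
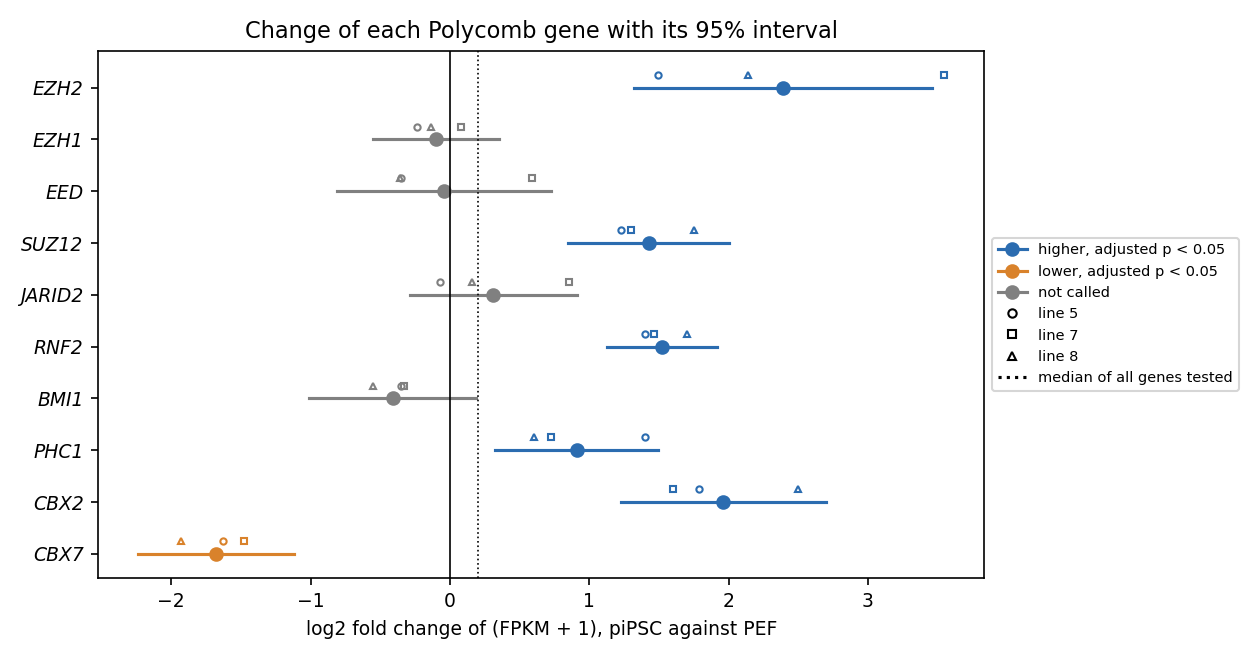
Log2 fold change of (FPKM + 1) in piPSCs against PEFs for the 10 Polycomb genes, as filled circles with 95% intervals from limma, with the ratio within each line as small open symbols. EZH2, SUZ12, RNF2, PHC1 and CBX2 lie right of 0 and CBX7 lies left of it in all 3 lines, and the dotted line marks the median of all genes tested, 0.20.

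The bases before the start of CBX2 and EZH2, both of which rose, are shown with each CG in capitals, because CG-rich DNA is where several subunits of both complexes are known to bind. The RefSeq start lay within 100 bases of the end given in the expression table for these genes and for SUZ12 and PHC1.
CBX2 (chr12:2580337-2580586, minus strand): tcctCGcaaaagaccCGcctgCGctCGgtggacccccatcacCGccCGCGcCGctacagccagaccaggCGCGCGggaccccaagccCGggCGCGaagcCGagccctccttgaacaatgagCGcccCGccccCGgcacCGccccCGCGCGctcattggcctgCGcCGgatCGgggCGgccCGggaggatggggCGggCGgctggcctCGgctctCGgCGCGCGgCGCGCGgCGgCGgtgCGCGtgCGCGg
EZH2 (chr9:109384726-109384975, plus strand): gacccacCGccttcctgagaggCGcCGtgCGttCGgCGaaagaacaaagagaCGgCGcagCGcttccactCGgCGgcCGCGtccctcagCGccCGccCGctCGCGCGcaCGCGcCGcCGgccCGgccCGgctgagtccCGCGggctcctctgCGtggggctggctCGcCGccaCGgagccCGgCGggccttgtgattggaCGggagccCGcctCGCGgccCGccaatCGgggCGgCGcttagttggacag
In the full window of 300 bases, CG occurred 51 times for CBX2, 45 times for EZH2, 39 times for SUZ12 and 37 times for PHC1. Over the promoters of all genes the median was 16, with quartiles of 6 and 27, so these 4 genes lay above the upper quartile, as did EZH1 and RNF2. The promoters of all genes were taken whatever the distance of their RefSeq starts from the table's ends. In the windows of the other genes searched, whose RefSeq starts lay farther from the table's ends, CG occurred 36 times for EZH1, which was not called, 29 times for RNF2, 25 times for BMI1, 12 times for JARID2 and 2 times for EED. Methylation of these bases was not analysed here.

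Shares within groups of related genes, computed after the single values were known, show which transcript prevailed. Of the summed FPKM of EZH1 and EZH2, EZH2 held 40.9 ± 17.5% in PEFs and 82.8 ± 4.65% in piPSCs (SD, n = 3). PHC1 went from 3.87 ± 0.511% to 15.5 ± 3.26% of the polyhomeotic sum, and PHC2 kept the largest share in every library. BMI1 held 54.0 ± 8.36% of the sum with PCGF2 in PEFs and 43.3 ± 6.69% in piPSCs, with overlapping ranges.

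**Figure D3:**
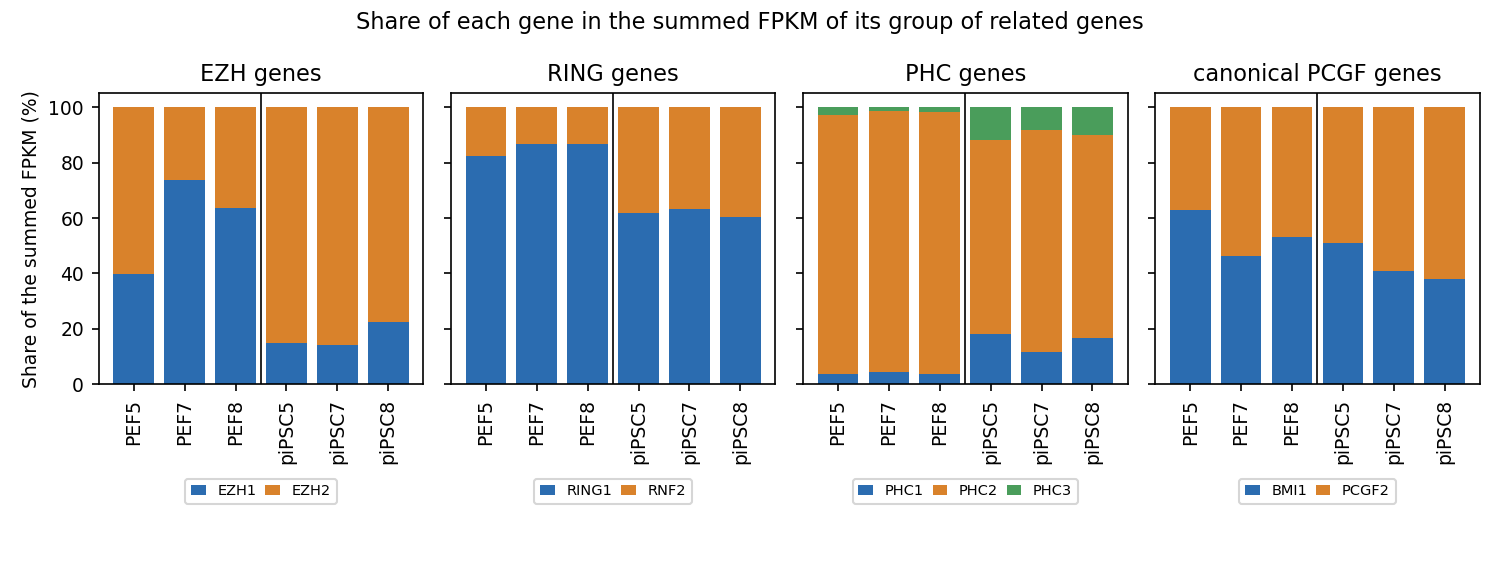
Share (%) of each gene in the summed FPKM of its group of related genes, as stacked bars for each PEF and piPSC library, with a vertical line between the groups. EZH2 holds 40.9% on average in PEFs and 82.8% in piPSCs, RNF2 14.7% and 38.2%, PHC1 3.87% and 15.5%.

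The remaining subunits of both complexes were examined as 3 lists of 32 genes, of which 29 were listed and tested. Of these, 13 (44.8%) were higher and 3 (10.3%) were lower in piPSCs, beside 30.3% and 21.5% of all genes tested, with a median log2 fold change of 0.47 beside 0.20. Without both libraries of line 5 the counts were 6 and 1, while those over all genes went from 3763 to 1805 higher and from 2667 to 1334 lower. Of the 8 other PRC2 genes, MTF2, RBBP7, LCOR and RBBP4 (50%) were higher and PHF1 (12.5%) was lower. MTF2 and PHF1 are Polycomb-like proteins that link PRC2 to CG-rich DNA, and they moved in opposite directions. MTF2 went from 2.96, 1.47 and 3.37 FPKM to 7.58, 7.35 and 10.8 FPKM (log2 fold change 1.43, limma adjusted p = 0.00672), although its limma adjusted p was 0.0557 without both libraries of line 5. PHF1 went from 6.56, 7.01 and 7.44 FPKM to 1.29, 1.67 and 0.415 FPKM (log2 fold change -1.96, limma adjusted p = 0.002). The histone binding subunit RBBP7 rose by 1.28 on the log2 scale (limma adjusted p = 0.00317), with 15.6, 14.7 and 9.72 FPKM in PEFs and 30.2, 34.6 and 35.0 FPKM in piPSCs. Its relative RBBP4 was the most abundant of these genes, at 71.1 ± 7.36 and 116 ± 18.4 FPKM (SD, n = 3), and its call (log2 fold change 0.69, limma adjusted p = 0.0161) ended without piPSC5 (0.0637) or piPSC8 (0.0508). LCOR, whose locus also makes a PRC2 cofactor, rose by 1.09 on the log2 scale (limma adjusted p = 0.00935), and was not called without both libraries of line 5 (0.103) or of line 7 (0.0764).

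Of the 8 other canonical PRC1 genes, SCML2, CBX6 and PHC3 (37.5%) were higher and PHC2 (12.5%) was lower. Beside them stand 30.3% and 21.5% of all genes tested, and the median was 0.13 beside 0.20. CBX6, a further chromodomain subunit, rose from 13.1, 12.4 and 7.92 FPKM to 30.4, 33.1 and 22.7 FPKM (log2 fold change 1.30, limma adjusted p = 0.00534). SCML2, a sex comb related protein, went from 0.534, 0.0997 and 0.267 FPKM to 3.33, 2.17 and 3.16 FPKM (log2 fold change 1.58, limma adjusted p = 0.00285). Of the 13 variant PRC1 genes, which join the RING subunits without a CBX protein, 6 (46.2%) were higher and DCAF7 (7.69%) was lower. These shares stand beside the same 30.3% and 21.5%, with a median of 0.47. PCGF6, the PCGF subunit of a variant complex with MGA, went from 4.29, 2.87 and 2.55 FPKM to 14.8, 12.7 and 16.4 FPKM (log2 fold change 1.90, limma adjusted p = 0.000957). MGA itself, a DNA-binding protein, rose by 1.46 on the log2 scale (limma adjusted p = 0.00678). KDM2B, the CG-binding subunit of another variant complex, and its partner BCOR had log2 fold changes of 1.21 and 1.14. KDM2B was not called without PEF7 (limma adjusted p = 0.0548), and BCOR was not called without PEF7 (0.0901), PEF8 (0.0651), piPSC5 (0.0786) or piPSC7 (0.0581). USP7, a deubiquitinase found with variant PRC1, rose by 0.99 on the log2 scale (limma adjusted p = 0.005), whereas DCAF7 fell by 0.82 (limma adjusted p = 0.0185) and lost its call without PEF5 (0.061).

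Of 10 genes for enzymes that remove the Polycomb marks and for their cofactors, 9 were tested, 5 (55.6%) were higher and none was lower in piPSCs (limma), beside 30.3% and 21.5% of all genes tested, nor was any lower at an unadjusted p under 0.05 or by voom on the recovered fragments. The median log2 fold change was 0.70 beside 0.20. Among the 9 is the Y-linked UTY, which had at most 1 fragment in each library of lines 5 and 7. UTY passed the minimum level through line 8 alone, at 1.07 FPKM in PEF8 and 2.72 FPKM in piPSC8. ASXL1, a cofactor of the H2A deubiquitinase BAP1, rose from 4.84, 4.08 and 5.21 FPKM to 14.9, 10.4 and 14.9 FPKM (log2 fold change 1.32, limma adjusted p = 0.00274), and BAP1 was read at 35.6 ± 5.32 and 33.0 ± 6.47 FPKM (SD, n = 3). The H2A deubiquitinase MYSM1 rose by 0.93 on the log2 scale (limma adjusted p = 0.00582), and was not called without both libraries of line 5 (0.0576). The other 3 calls, for ASXL3, ASXL2 and USP16, ended without single libraries. ASXL3 was not called without any 1 of the PEF libraries (limma adjusted p = 0.061 to 0.074), and ASXL2 was not called without any 1 library other than piPSC7 (0.0618 to 0.111). USP16 was not called without PEF7 (limma adjusted p = 0.0574), piPSC5 (0.0628) or piPSC8 (0.0501). The count of higher genes was between 2 and 4 when 1 library was left out. Over all genes it was then between 2738 and 3595, beside 3763 with all libraries. ASXL3 also missed the threshold with the line as a replicate block (limma adjusted p = 0.0542), and it passed the minimum level in only 15 of the 19 fits. The demethylases KDM6A and KDM6B, which act against the mark of PRC2, did not pass the test. KDM6A was read at 6.05, 5.32 and 3.75 FPKM in PEFs and at 7.08, 7.34 and 3.72 FPKM in piPSCs, and KDM6B at 4.66, 6.67 and 10.2 FPKM and at 14.4, 9.43 and 11.9 FPKM (limma adjusted p = 0.0854, and 0.0328 without PEF8).

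**Figure D4:**
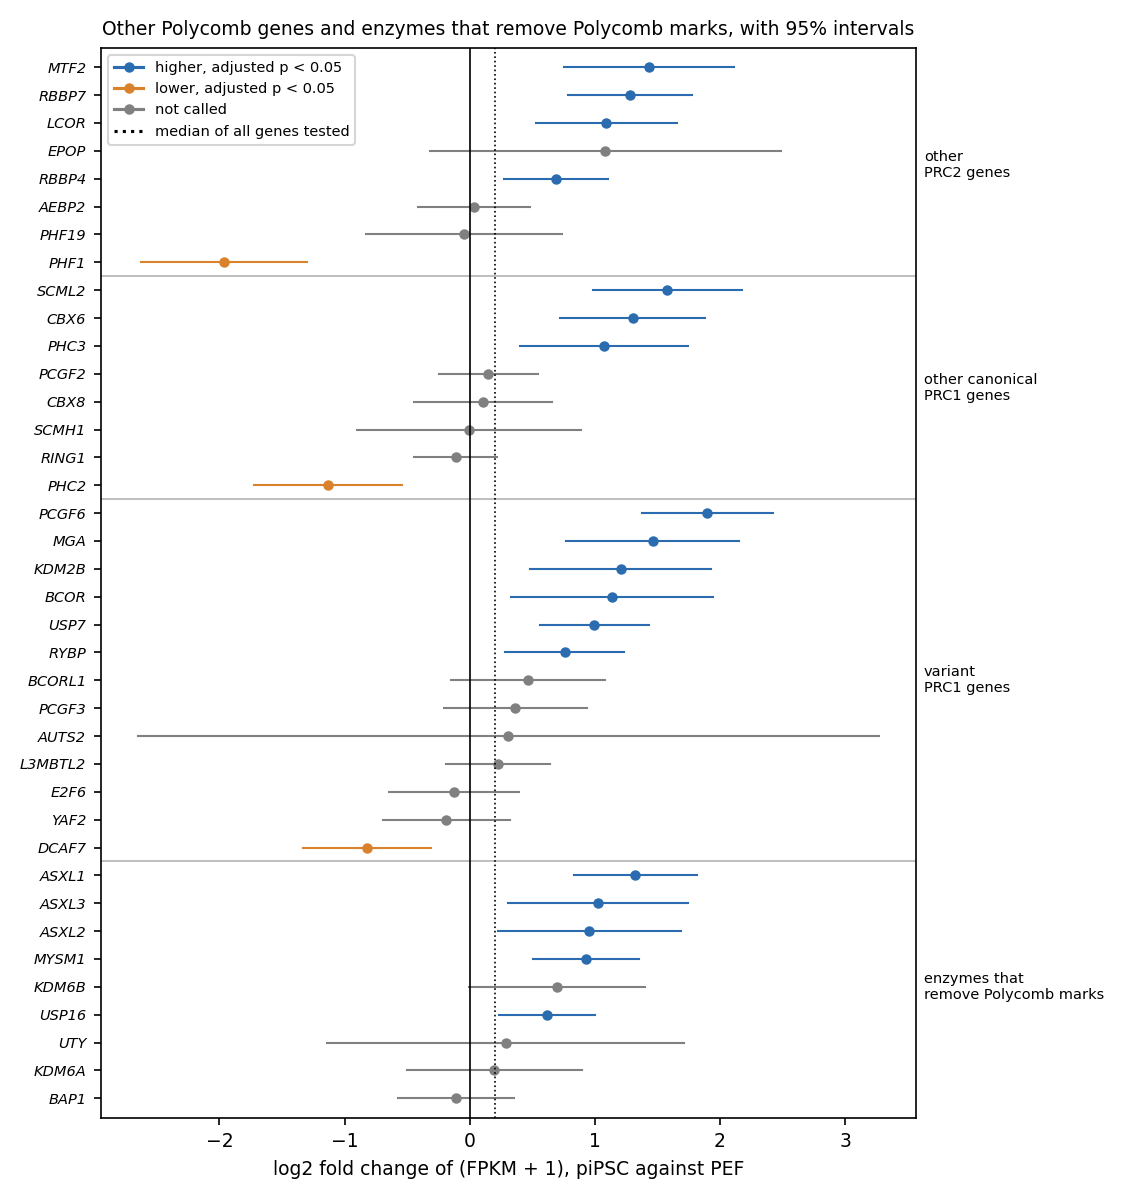
Log2 fold change of (FPKM + 1) in piPSCs against PEFs with 95% intervals from limma, for 29 other Polycomb genes in 3 lists and 9 genes for enzymes that remove Polycomb marks. Blue marks genes called higher, orange genes called lower and grey genes not called, and PCGF6 at 1.90 and PHF1 at -1.96 lie farthest out on either side.

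Textbook targets of the Polycomb complexes, chiefly transcription factors and signals of development, were read in the same libraries. Binding and histone marks were not measured in these cells, so the list says what is known elsewhere. Of 79 genes, 70 were listed and 42 passed the minimum mean level of 0.5 FPKM, which a gene can also pass through 1 group alone. Of the 42, 15 (35.7%) were lower and 7 (16.7%) were higher in piPSCs, beside 21.5% and 30.3% of all genes tested, with a median log2 fold change of 0.01 beside 0.20. For 6 of the 42, all libraries of 1 group held at most 3 fragments, and the median was again 0.01 with these at their bounds. Without both libraries of line 5, 4 were higher and 11 lower, beside 1805 and 1334 of 12451 genes tested in that fit. Without piPSC8, 12 were higher and 14 lower, beside 3595 and 2345 of 12392 genes. The low count of higher targets thus depended on piPSC8. WNT5A, a secreted signal, went from 85.3, 61.7 and 155 FPKM to 3.13, 1.37 and 0.0665 FPKM (log2 fold change -5.44, limma adjusted p = 0.000675). TBX2 followed, from 69.6, 66.5 and 75.7 FPKM to 2.42, 0.425 and 0.169 FPKM (log2 fold change -5.32, limma adjusted p = 0.000302). TBX15, TBX3 and FOXF1 had log2 fold changes of -3.33, -3.06 and -3.00, and TBX3 was not called without both libraries of line 7 (limma adjusted p = 0.0633). The 10 fibroblast markers fell in the same comparison, and their part in these values was not tested.

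Among the targets that rose, HAND2, a factor of heart and limb, went from 0.772, 2.2 and 1.82 FPKM to 52.0, 43.8 and 42.6 FPKM (log2 fold change 4.22, limma adjusted p = 0.000179). NEUROG2, a factor of neural progenitors, varied between the piPSC lines, at 27.5, 36.4 and 1.33 FPKM in piPSC5, piPSC7 and piPSC8, and was at or below 0.242 FPKM in PEFs. It was called with all libraries but not without any 1 library other than piPSC8 (limma adjusted p = 0.0556 to 0.0766). PAX9, a factor of skeletal and tooth development, went from 0.688, 1.53 and 0.0568 FPKM to 3.53, 15.8 and 4.77 FPKM (limma adjusted p = 0.0171), and was not called without PEF8 (0.053), nor without both libraries of line 5 (0.0652) or of line 8 (0.0549). FOXA1, an endoderm factor, rose from at most 0.0929 FPKM in PEFs to 13.9, 2.31 and 5.59 FPKM (limma adjusted p = 0.00611). The CDKN2A locus, a cell cycle inhibitor gene that BMI1 and CBX7 are known to repress, was listed as P14ARF (ENSSSCG00000005134, chromosome 1 from 200774496 to 200798854, plus strand). It went from 7.44, 39.0 and 11.9 FPKM to 112, 155 and 81.8 FPKM, without overlap. Its log2 fold change was 2.79 (SE 0.57, 95% interval 1.43 to 4.16, limma adjusted p = 0.00761), and the limma adjusted p was 0.0663 without both libraries of line 5.

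**Figure D5:**
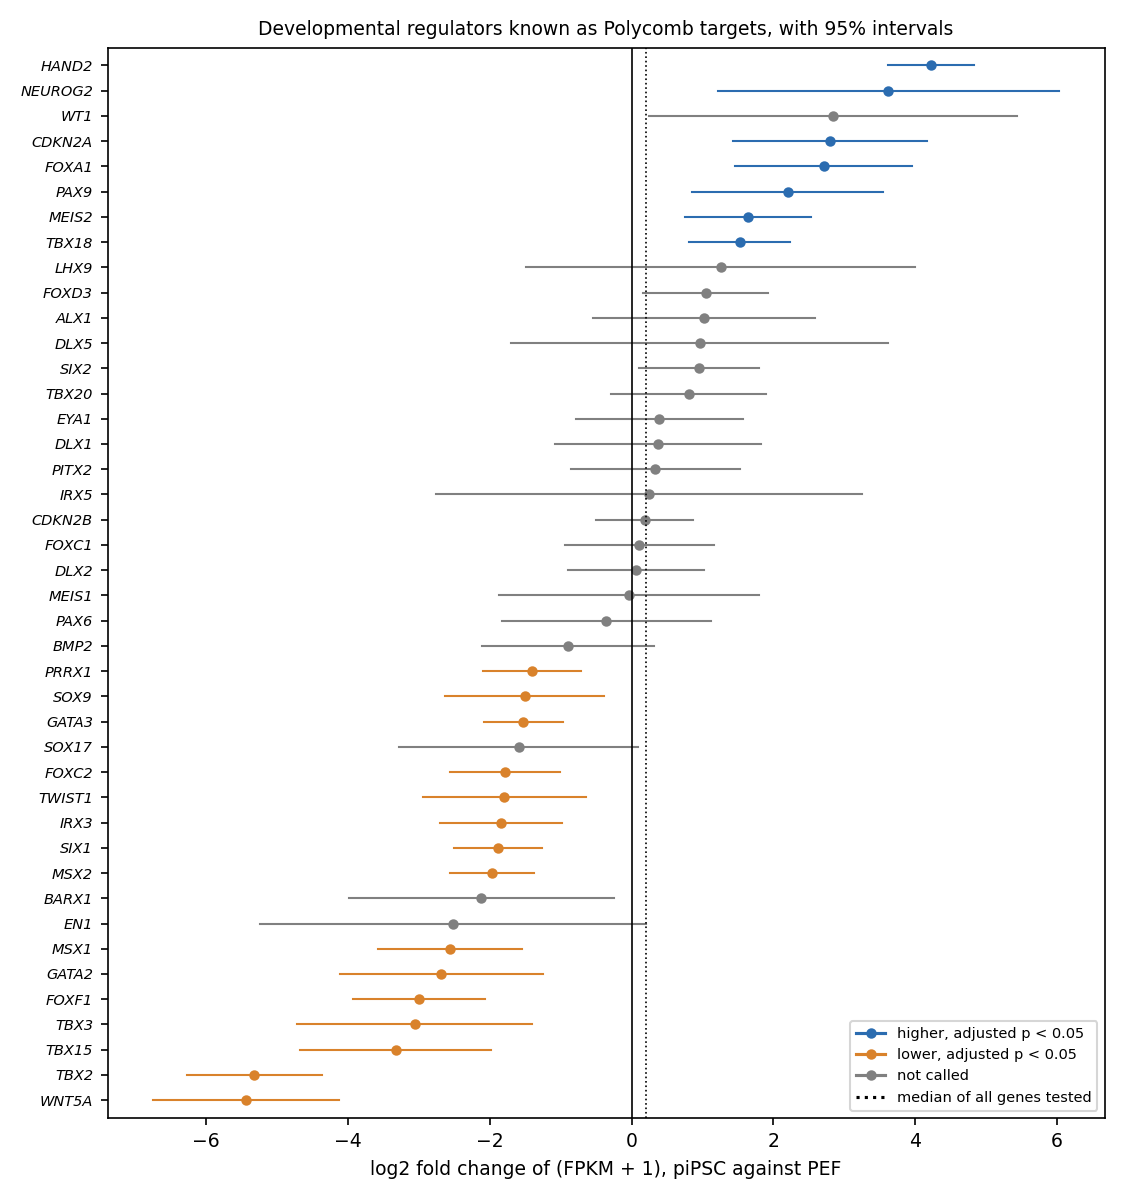
Log2 fold change of (FPKM + 1) in piPSCs against PEFs with 95% intervals from limma, for the 42 tested developmental regulators known as Polycomb targets, sorted by size. Orange marks the 15 genes called lower, from WNT5A at -5.44, blue the 7 called higher, up to HAND2 at 4.22, and grey those not called.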

How the data were processed

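The authors deposited FPKM values per gene on Sscrofa11.1. The submitters' processing notes name HISAT2 2.1.0, HTSeq 0.6.0 and Bowtie2 2.2.3, and the annotation release and the handling of shared reads are not given in the sources used here. The values were whole multiples of 1 fragment for 100% of 18007 genes (tolerance 2e-05), so fragments were recovered. Totals ran from 11010629 to 17836510 fragments per library. With 0 fragments read, up to 3 are allowed by the count, and counting intervals cover counting error only. Of 3375 genes listed by identifier only, 902 were named from a reference table, BMI1 among them. Of 13188 symbols shared with the RefSeq annotation, 99.6% overlapped in position, and promoters were read from RefSeq sequence of that build. The E2F match and CG counts were made on the windows described.

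Groups were compared on log2(FPKM + 1) with limma 3.58.1 in R 4.3.3 (lmFit, eBayes with a trend), two-sided, for the 12428 genes whose FPKM averaged at least 0.5 over the libraries, with Benjamini-Hochberg adjustment and a threshold of 0.05. The study's section on statistics names an unpaired test. For its RNA sequencing it compared each piPSC line with its own PEF line and took the genes shared by the 3 comparisons. This fit and the recovery of fragments were tested on simulated data. Ratios used exact permutation tests in Python 3.11.15 with scipy 1.17.1, numpy 2.4.6 and pandas 2.3.3, and figures matplotlib 3.10.9. Named genes are the 10 Polycomb genes, up to 5 called genes in each direction of each other list, and PCGF2, RING1, RBBP4, RBBP7, KDM6A, KDM6B and CDKN2A. BAP1, CBX8 and M6PR were added after their values were seen. The genes and lists were chosen with earlier results of these data known. Proteins were not compared here, and some genes of the lists and 1 promoter are not reported here.

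The numbers of the lines pair the libraries, since each piPSC line came from the PEF line of that number. Once the group means were removed, libraries of the same number correlated at 0.0921, 0.0946 and 0.08, and those of other numbers at -0.121 to 0.0553. Fragments of the mouse feeder cells cannot be told apart in these values. Alternatives were the replicate block, a pseudocount of 0.1, no minimum or a minimum of 1 FPKM, rescaling to the median ratio or to a sum of 1000000, quantile normalization, no trend, voom on the recovered fragments, and leaving out each library or both libraries of a line.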

Additional observations from a re-analysis of the deposited data

Results flagged for a closer look

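For EZH1, EED and JARID2 the lines moved in opposite directions between PEF and piPSC, which was not tested because each line has 1 library per group. The log2 ratio of (FPKM + 1) for EZH1 was -0.24 in line 5, 0.076 in line 7 and -0.14 in line 8. For EED it was -0.35 in line 5, 0.59 in line 7 and -0.36 in line 8. For JARID2 it was -0.073 in line 5, 0.86 in line 7 and 0.16 in line 8. In all 3 genes line 7 had the highest ratio, as it had for EZH2, BMI1 and CBX7, but not for SUZ12, RNF2, PHC1 and CBX2. PEF7 had the lowest sum of the proliferation genes, and whether proliferation has a part in these ratios was not tested.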

How the results depend on the processing

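EZH2, SUZ12, RNF2, CBX2 and CBX7 were called in the same direction in all 19 fits, the reported one and its alternatives. The direction of EED, which was not called, reversed to 0.05 without PEF5, 0.21 without PEF8, 0.03 without piPSC5, 0.11 without line 5 and 0.12 without line 8, with a range of -0.38 to 0.21 over single libraries left out. PHC1 also missed the threshold when rescaled to a sum of 1000000 (PHC1 log2 fold change 0.76). Rescaling moved the median of all genes from 0.20 to -0.01 (median ratio) or -0.07 (sum), and the higher share of calls from 58.5% to 46.4% or 43.0%. Rescaled to the median ratio, 2 of the 10 genes were lower, and 3 mark-removing enzymes were higher under either rescaling. Of all genes tested, 2827 were higher and 3265 lower of 12403 under the median ratio. Under the sum, 2629 were higher and 3481 lower of 13867. PCGF2 reversed to -0.093 and -0.15 and KDM6A to -0.034 and -0.088, in that order. Without line 5, 6 other Polycomb genes were higher and 1 lower, 1 enzyme was higher and 4 targets were higher. Without line 7, 2 enzymes were higher, and without line 8, 3 were. Of all genes tested, 1805 of 12451 were higher without line 5, 2615 of 12379 without line 7 and 3047 of 12258 without line 8. The lower ones were 1334, 1987 and 2223, in that order. Leaving out single libraries gave 4 to 5 higher and 1 lower of the 10 genes, and 9 to 12 and 2 to 3 other Polycomb genes. It gave 2 to 4 and 0 enzymes, and 6 to 12 and 13 to 17 targets. Beside them stand 2738 to 3595 higher and 2091 to 2504 lower of all genes tested. The ratios ranged from 2.16 to 2.96 (EZH2 to EZH1), 3.31 to 4.04 (CBX2 to CBX7) and -0.77 to -0.33 (BMI1 to PCGF2). With a pseudocount of 0.1 they were 2.82, 5.99 and -0.62.

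Under the replicate block by line, the counts were 5 and 1 of the 10 genes and 13 and 3 other Polycomb genes. They were 4 and 0 enzymes and 8 and 15 targets, beside 3483 and 2450 of all 12428 genes. That fit changed no call of the 10 genes. The sign-flip test on the paired ratios gave p = 0.25 each, the smallest it can give (exact permutation). Of 30 other named genes called, 14 were called under all alternatives. Depth limits CBX7 most, with 1 to 8 fragments in piPSCs.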

Other observations

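Some Polycomb genes, and IRX5 of the target list, differed more between the piPSC lines than between the groups. They were picked after their values were seen. AUTS2, a subunit of a variant PRC1, was read at 9.31, 18.0 and 3.27 FPKM in PEF5, PEF7 and PEF8 and at 32.4, 29.6 and 0.555 FPKM in piPSC5, piPSC7 and piPSC8. Line 8 was the lowest in both groups and was the only line that fell. EPOP, an accessory subunit of PRC2, was read at 5.21, 3.67 and 3.24 FPKM in the PEF lines and at 4.84, 6.20 and 26.9 FPKM in the piPSC lines, with piPSC8 far above the other libraries. IRX5, a homeobox gene of the target list, was read at 8.78, 10.4 and 4.36 FPKM in the PEF lines and at 24.9, 32.9 and 0.130 FPKM in the piPSC lines, again with line 8 as the only line that fell. These differences between lines were not tested, and with 1 library per line and group the difference in change between lines cannot be.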
